A study of Mus musculus with 16 samples.

Results

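The enzymes described here are 10 antioxidant genes measured in the bladder body of mature and aged mice: the superoxide dismutases Sod1, Sod2 and Sod3, the catalase Cat, the glutathione peroxidases Gpx1, Gpx3 and Gpx4, and Nqo1, Hmox1 and Gclc, which are known targets of the transcription factor NRF2. They were chosen by symbol, and a probe was taken as theirs when its RefSeq accession belonged to one of these symbols. That gave 12 probes of the 55681 on the array, 1 for each gene except Cat and Hmox1, which had 2 each. All 12 probes were well above background on all 16 arrays, so all 10 genes were among the 26781 genes tested. Of these 26781, 15933 had a gene symbol and the others were entries without one. Shares and medians over all genes count both kinds.

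The study asked how ageing changes the bladder of male and female mice. RNA of 16 bladders of C57BL/6 mice was hybridized to 1-colour Agilent arrays, 1 bladder to an array, and each sex was sampled at maturity (MAT, 12 months) and in old age (AGED, 27 to 30 months) with 4 arrays per group. The labels name no transgene or drug treatment for any group. MAT mice here are middle-aged adults, so the comparison says nothing of the change from youth to 12 months.

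Superoxide dismutases turn superoxide into hydrogen peroxide in the cytosol (Sod1), the mitochondria (Sod2) and outside the cell (Sod3). Catalase and the glutathione peroxidases then remove hydrogen peroxide or lipid peroxides, and the peroxidases use glutathione, whose synthesis begins with the ligase that Gclc encodes. NRF2 binds antioxidant response elements and raises transcription of genes such as Nqo1, a quinone reductase, Hmox1, which breaks down haem, and Gclc.

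Promoter sequences are shown for the 3 enzymes on which the results turn: Cat and Nqo1, with the largest age change in females and (narrowly, before Sod3) in males, and Gpx3, the one enzyme called between the sexes. Each is the RefSeq window of 300 bases, from 250 bases before the annotated start to 50 bases from it, read on the strand of the gene in GRCm38.p6. The windows lie at chr2:103485104-103485403 for Cat (minus strand), chr8:107403156-107403455 for Nqo1 (minus strand) and chr11:54902604-54902903 for Gpx3 (plus strand). Capitals mark matches to GGGCGG (the GC box), to CCAAT (the CCAAT box) and to TATAAA (the TATA box), or to their reverse complements.
Cat: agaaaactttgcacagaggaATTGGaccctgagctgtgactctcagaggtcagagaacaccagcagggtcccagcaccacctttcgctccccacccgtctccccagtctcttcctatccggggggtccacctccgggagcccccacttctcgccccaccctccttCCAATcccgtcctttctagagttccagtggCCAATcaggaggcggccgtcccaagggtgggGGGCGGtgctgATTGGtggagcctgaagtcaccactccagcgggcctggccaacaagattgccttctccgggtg
Nqo1: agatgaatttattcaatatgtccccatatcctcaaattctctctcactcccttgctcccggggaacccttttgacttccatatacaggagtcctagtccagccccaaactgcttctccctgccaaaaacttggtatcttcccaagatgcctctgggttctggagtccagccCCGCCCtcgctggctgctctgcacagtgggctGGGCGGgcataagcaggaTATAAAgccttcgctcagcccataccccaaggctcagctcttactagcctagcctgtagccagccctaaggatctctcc
Gpx3: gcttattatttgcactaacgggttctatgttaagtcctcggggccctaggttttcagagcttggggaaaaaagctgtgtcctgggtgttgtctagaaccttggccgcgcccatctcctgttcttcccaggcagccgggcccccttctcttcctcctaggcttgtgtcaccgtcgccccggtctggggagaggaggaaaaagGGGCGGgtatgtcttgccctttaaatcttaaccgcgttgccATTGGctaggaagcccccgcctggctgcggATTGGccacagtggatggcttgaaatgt
The window of Nqo1 held TATAAA at position -29 from the start and GC boxes at positions -79 and -47. Cat and Gpx3 held no TATAAA, and each held 1 GC box and CCAAT letters. Windows were found for 7 of the 10 enzymes (all but Sod3, Hmox1 and Gclc). These 7 enzymes had 10 windows, because Gpx4 had more than 1, and some of its windows overlap. GGGCGG was in 9 of the 10 windows (7 of the 7 enzymes), against 35.7% of 32851 mouse windows. CCAAT was in 7 of the 10 windows (5 of the 7 enzymes) against 37.4%. TATAAA was in 2 of the 10 windows (Nqo1 and Sod1) against 13.6%. The core letters of an antioxidant response element, TGACNNNGC, were in 1 of the 10 windows, that of Sod1, against 12.4%. Both strands were searched, and no match in the 3 printed windows shared a base with another. A match describes letters in a window of this length, not binding.

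Values are log2 processed signals less the 75th percentile of the array, so that 0 is that percentile, and a difference of 1 is a 2-fold difference. Values of different genes come from different probes and are not compared with each other. The 75th percentile itself was 9.90 to 10.03 on the MAT male arrays and 9.18 to 10.005 on the AGED male arrays. It was 10.20 to 10.23 on the MAT female and 9.83 to 10.82 on the AGED female arrays. The high value of 10.82 belonged to AGED female replicate 3. The low value of 9.18 belonged to AGED male replicate 1, on which 52.3% of probes were well above background, against 58.7% to 68.2% on the other 15 arrays, and results that rest on this array are given with and without it. Urothelium markers (8 of 8) and smooth muscle markers (7 of 7) were well above background on all arrays, while of the 5 accessory gland markers Svs2, Svs4, Svs5 and Pate4 were well above background on at most 2 arrays and Spink1 on 13. All MAT arrays of a sex lay in one row of a slide and all AGED arrays in the other, and each sex had a slide of its own, so age and slide row cannot be told apart, nor sex and slide. In these bulk samples fewer cells of a type and less RNA per cell cannot be told apart either.

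All directions with age follow the labels of the arrays, and they oppose those of the table of most changed genes in the study. Of its genes, 8 were tested here, and for 8 of 8 the direction by the labels was the opposite in both sexes. The 5 listed there as lower in aged mice (Chil3, Defb50, S100a9, F10 and Mmp3) were higher on the arrays labelled AGED, and the 3 listed as higher (AI593442, Kcnj5 and Gsg1l) were lower. Chil3, for example, was higher by 5.68 in males (adjusted p = 5.77e-06, limma) and by 2.53 in females (adjusted p = 0.0219). Mmp3 also had a limma adjusted p under 0.05 for each sex, and AI593442, Defb50 and S100a9 for males alone. F10, Kcnj5 and Gsg1l had none under 0.05, so for them the direction is that of the estimate only. F10 was near 0, with a male estimate of 0.12 and a female one of 0.15, far below the size the study lists. The female estimate of Gsg1l was -0.23. Whether the labels or that table hold the true direction cannot be told from these files. If the age labels were exchanged, every age change given here would keep its size and test and turn its sign, the comparisons of the sexes would exchange their ages, and AGED and MAT are therefore the labels of the arrays throughout.

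No antioxidant enzyme passed the test for a change with age. In limma with Benjamini-Hochberg adjustment over all genes, 0 of 10 enzymes were called at an adjusted p under 0.05 with at least a 2-fold change in males, where 0.851% of all genes were called, and 0 of 10 in females, where 0.19% were. Without the fold limit the count was also 0 of 10 in males (1.72% of all genes) and 0 of 10 in females (0.224%). At an unadjusted p under 0.05 there was 1 enzyme of 10 in males, Nqo1, where 16.2% of all genes passed, and 1 of 10 in females, Cat, where 10.5% passed. The methods' t-test at the same unadjusted level gave 2 of 10 enzymes in each sex (Nqo1 and Gpx4 in males, Cat and Sod2 in females), against 10.1% and 15.6% of all genes, and 0 of 10 with the 2-fold limit, against 1.85% and 1.47%.

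The sizes of the changes were small and spread over both signs. In males the log2 changes ran from -0.49 to 0.44, with 6 enzymes higher and 4 lower in AGED mice, and in females from -0.61 to 0.43, with 7 higher and 3 lower. The signs of Gpx1 in both sexes and of Gclc in males turned under some other scaling or background correction. The median change of the 10 was 0.04 in males and 0.10 in females, beside 0.00 and -0.01 over all genes tested. The median size of change was 0.24 in males and 0.20 in females, beside 0.22 and 0.17 over all genes. A 95% interval lay within 2-fold either way for 8 of 10 enzymes in each sex and within 1.5-fold for 6 of 10, so that a 2-fold change was outside the interval for most, but not all, of them.

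**Figure D1:**
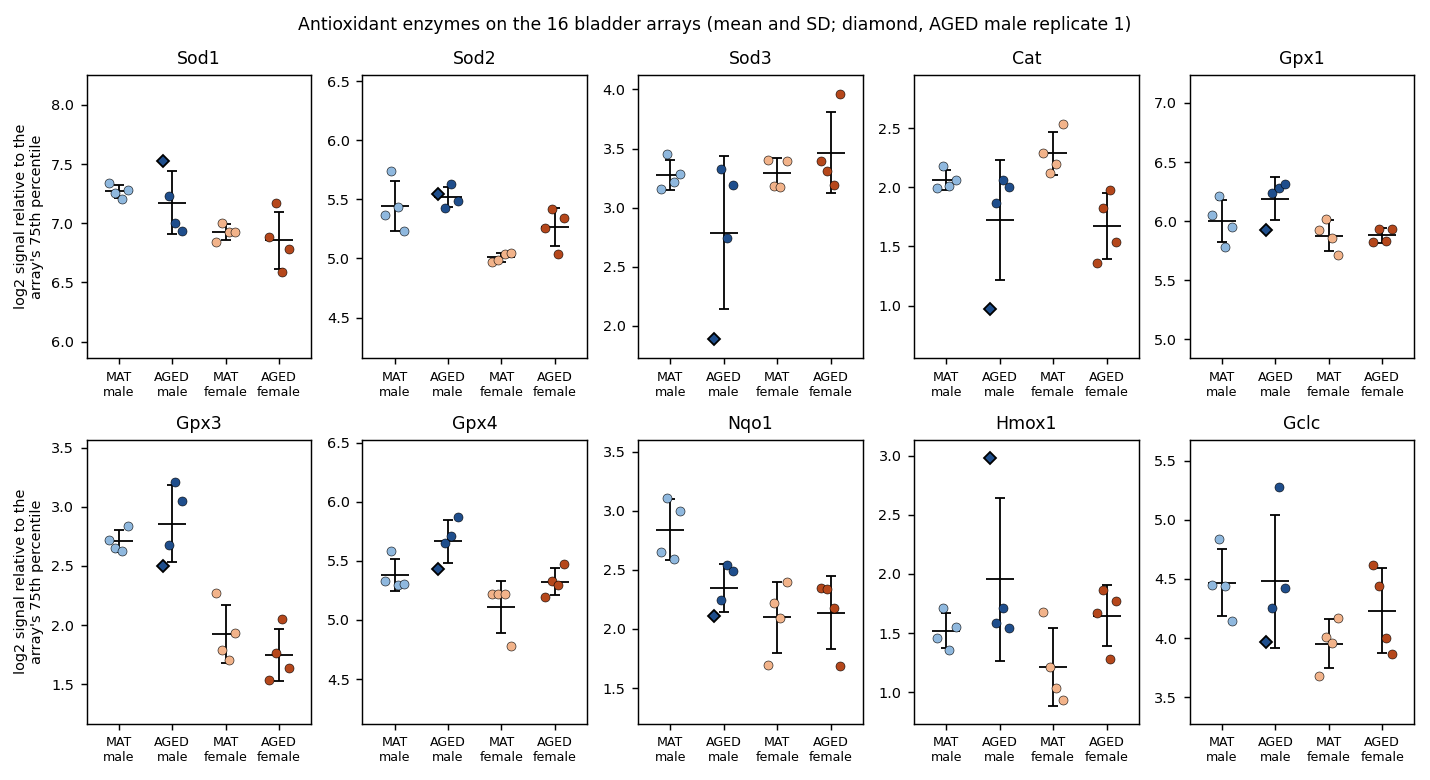
Log2 signal of each enzyme relative to the 75th percentile of its array, for the tested probe, on the 4 arrays of each group (points), with the group mean and SD (bars). Every panel spans 2.4 log2 units, and the diamond is AGED male replicate 1, which is the lowest AGED male for 7 enzymes, among them Sod3 (1.89), Cat (0.97) and Nqo1 (2.11), and the highest for 2, Sod1 and Hmox1 (2.98).

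**Figure D2:**
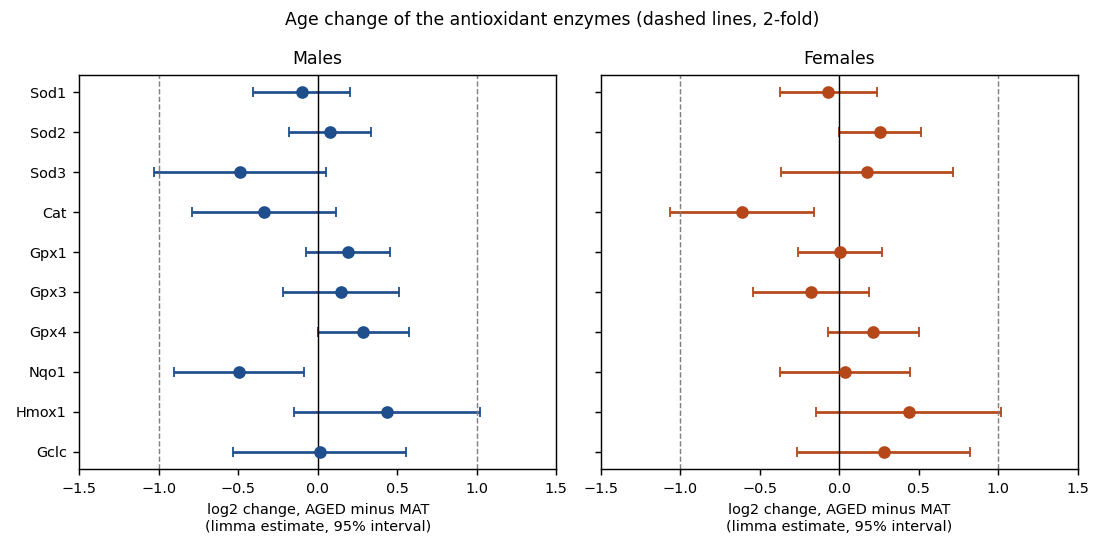
Log2 change with age of each enzyme in males and in females, as the limma estimate and its 95% interval, with dashed lines at 2-fold. Intervals that do not reach 0 are those of Nqo1 in males (-0.90 to -0.09) and Cat in females (-1.06 to -0.16).

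Of the superoxide dismutases, Sod1, the cytosolic form, read 7.21 to 7.34 in MAT males and 6.93 to 7.52 in AGED males, and 6.84 to 7.0 in MAT females and 6.59 to 7.17 in AGED females. The change was -0.10 ± 0.14 (SE; adjusted p = 0.762, limma) in males and -0.07 ± 0.14 (adjusted p = 0.924) in females. The AGED arrays thus spread to both sides of the MAT arrays in each sex. Over the other settings tried the Sod1 change ran from -0.62 to -0.10 in males and from -0.31 to -0.03 in females, with the largest sizes under normexp background correction, and in males it was -0.22 without AGED male replicate 1.

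Sod2, the mitochondrial form, read 5.24 to 5.74 in MAT males and 5.42 to 5.63 in AGED males, a change of 0.08 ± 0.12 (SE; adjusted p = 0.787, limma). In females the 4 MAT arrays lay close together at 4.97, 4.98, 5.04 and 5.05, and the AGED arrays read 5.26, 5.41, 5.04 and 5.34. In that sex 3 of 4 AGED arrays were above every MAT array and 1, replicate 3, was among them. The change was 0.25 ± 0.12 (SE), with an interval of -0.01 to 0.51 and an adjusted p of 0.489 (limma). Without AGED female replicate 3 it was 0.33.

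Sod3, the extracellular form, had opposite signs in the sexes. MAT males read 3.16, 3.45, 3.22 and 3.29, and AGED males read 1.89, 3.33, 2.74 and 3.19. The low reading was AGED male replicate 1, and the groups overlapped. The change was -0.49 ± 0.25 (SE; adjusted p = 0.356, limma) with all 4 AGED arrays and -0.19 ± 0.18 (adjusted p = 0.635) without that array. MAT females read 3.18 to 3.41 and AGED females 3.20 to 3.96, a change of 0.17 ± 0.25 (adjusted p = 0.878). The difference of the age changes between the sexes was -0.67 ± 0.36 (SE), with an adjusted p of 0.582.

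Catalase was the enzyme with the largest change in females. MAT females read 2.29, 2.12, 2.20 and 2.54, and AGED females read 1.36, 1.83, 1.98 and 1.54. Every AGED female lay below every MAT female. The change was -0.61 ± 0.21 (SE), or 1.53-fold lower, with an interval of -1.06 to -0.16. The exact two-sided permutation p was 0.0286, the smallest that 4 arrays against 4 can give, the unadjusted limma p was 0.0116 and the adjusted p was 0.332. Groups without overlap were found for 1 of 10 enzymes in females, where 10.8% of all genes had such groups, and 8.35% of all genes had a larger change in size. Over the other settings tried the change stayed between -0.64 and -0.53, with adjusted p from 0.0557 (array weights) to 0.421. With 1 array left out it stayed between -0.71 and -0.51, with adjusted p from 0.0632 to 0.707 (limma). The SE and limma p rest on a spread shared by all 4 groups, male arrays included. The SD of Cat was 0.18 in MAT females, 0.28 in AGED females, 0.08 in MAT males and 0.51 in AGED males.

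In males Cat read 1.99, 2.18, 2.01 and 2.06 at MAT age and 0.97, 1.87, 2.06 and 2.0 at AGED age. AGED male replicate 1 was far below the others, which overlapped the MAT arrays. The change was -0.34 ± 0.21 (SE; adjusted p = 0.450, limma) with that array and -0.09 ± 0.15 (adjusted p = 0.813) without it. The age changes of the sexes differed by 0.27 ± 0.30 (SE; adjusted p = 0.824), so the test gave no difference between them. The second Cat probe gave -0.45 ± 0.24 (SE) in females and -0.36 ± 0.24 in males. With it MAT females read -0.98, -1.64, -1.75 and -1.56 and AGED females -2.12, -2.07, -1.68 and -1.85, so that 1 AGED array, replicate 3, was inside the MAT range (exact permutation p = 0.0571).

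Catalase is abundant in peroxisome-rich cells such as adipocytes, so the adipocyte markers are given beside it. In females 5 of 5 of them were lower in AGED mice, with a median change of -1.12. Their summed log2 level was 5.45 to 6.82 in MAT and 5.44 to 6.16 in AGED females, with a median of 5.72 in each. The 6.82 was MAT female replicate 1, and the other MAT females read 5.45 to 5.75. No adipocyte marker was called in either sex, and Lep was well above background on 4 of 16 arrays. The summed smooth muscle level was 10.13 to 10.27 in MAT and 9.72 to 10.54 in AGED females. The lowest smooth muscle level was that of AGED female replicate 3, which had the highest Cat of its group. The part of either cell type in the Cat values was not tested.

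Gpx1, the cytosolic glutathione peroxidase, read 6.05, 6.21, 5.78 and 5.95 in MAT males and 5.92, 6.24, 6.28 and 6.32 in AGED males. The change was 0.19 ± 0.12 (SE; adjusted p = 0.469, limma), and it turned to -0.17 and -0.13 with normexp background correction. In females the groups read 5.71 to 6.02 and 5.82 to 5.94, and the change was 0.00 ± 0.12 (adjusted p = 0.998), with an interval of -0.26 to 0.27.

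Gpx4, which reduces lipid peroxides in membranes, read 5.33, 5.58, 5.29 and 5.31 in MAT males and 5.43, 5.65, 5.71 and 5.87 in AGED males. Every AGED male was above 3 of the 4 MAT males, and only MAT male replicate 2 lay among them. The change was 0.29 ± 0.13 (SE), with an interval of -0.00 to 0.57, an exact permutation p of 0.0571 and an adjusted limma p of 0.309. MAT females read 5.22, 5.22, 5.22 and 4.78 and AGED females 5.19, 5.33, 5.30 and 5.47. The female change was 0.21 ± 0.13 (adjusted p = 0.623), and 0.10 without the low array, MAT female replicate 4. The difference between the sexes was 0.07 ± 0.19 (SE; adjusted p = 0.940).

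Gpx3, a secreted glutathione peroxidase, differed little with age. It read 2.72, 2.66, 2.63 and 2.84 in MAT males and 2.5, 2.68, 3.21 and 3.05 in AGED males, a change of 0.15 ± 0.17 (SE; adjusted p = 0.695, limma). MAT females read 2.27, 1.79, 1.71 and 1.93, and AGED females 1.54, 1.76, 2.05 and 1.64, a change of -0.18 ± 0.17 (adjusted p = 0.789). Both age comparisons overlapped, while all 8 male arrays lay above all 8 female arrays.

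Nqo1 had the largest change in males by a narrow margin, with Sod3 also at -0.49. The order was not stable: without AGED male replicate 2 Sod3 reached -0.67, and with normexp Sod1 reached -0.62. MAT males read 2.65, 3.11, 2.59 and 3.0, and AGED males read 2.11, 2.24, 2.54 and 2.49. Every AGED male was below every MAT male, by as little as the gap between 2.54 and 2.59. The change was -0.49 ± 0.19 (SE), or 1.41-fold lower, with an interval of -0.90 to -0.09. The exact two-sided permutation p was 0.0286, again the smallest possible, the unadjusted limma p 0.0204 and the adjusted p 0.213. Groups without overlap were found for 1 of 10 enzymes in males, against 7.82% of all genes, and 18.4% of all genes had a larger change in size. Over the other settings tried the change ran from -0.56 to -0.10, with adjusted p from 0.174 to 0.843, and the values nearest to 0, -0.10 and -0.11, came with normexp background correction. With 1 array left out it ran from -0.58 to -0.40.

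In females Nqo1 read 1.69, 2.22, 2.09 and 2.40 at MAT age and 2.34, 2.33, 2.18 and 1.69 at AGED age. The ranges were almost the same, and the change was 0.03 ± 0.19 (SE; adjusted p = 0.976, limma), with an interval of -0.37 to 0.44. The difference between the sexes was -0.53 ± 0.27 (SE), with an interval of -1.10 to 0.05 and an adjusted p of 0.554. It was the lowest adjusted p of the difference among the 10 enzymes, and 0 of 10 passed where 0.149% of all genes did. At an unadjusted p under 0.05 the difference gave 0 of 10, against 9.87% of all genes.

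Hmox1, the inducible haem oxygenase, read 1.46, 1.71, 1.36 and 1.55 in MAT males and 2.98, 1.58, 1.71 and 1.54 in AGED males. One array, AGED male replicate 1, was high, and the other AGED males lay among or at the top of the MAT males. The change was 0.44 ± 0.27 (SE; adjusted p = 0.449, limma) with it and 0.09 ± 0.18 (adjusted p = 0.836) without it. MAT females read 1.67, 1.21, 1.03 and 0.93 and AGED females 1.67, 1.87, 1.28 and 1.77. The female groups overlapped, and the change was 0.43 ± 0.27 (SE; adjusted p = 0.625).

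The second Hmox1 probe was also highest on AGED male replicate 1, at -0.72 against -2.01, -2.0 and -2.11 on the other AGED males and -2.10 to -1.54 on MAT males. Its change was 0.14 ± 0.29 (SE) in males and 0.51 ± 0.29 in females, where the exact permutation p was 0.0571. Macrophages that take up red cells are known for high Hmox1, and the macrophage markers moved on the same array. Their summed log2 level was 7.37 there, against 6.42 to 6.53 on the other AGED males and 6.22 to 6.56 on MAT males. Other marker lists were also highest there among males. T and B cell markers summed to 2.71, against 1.30 to 1.89 on the other AGED males and 1.19 to 1.89 on MAT males. Smooth muscle markers summed to 10.58, against 10.31 to 10.50 and 10.31 to 10.40. Of the 8 macrophage markers tested, 6 were higher in AGED males and 7 in AGED females, and of these 2 were called in males (Marco and Vsig4; 0.851% of all genes) and 1 in females (Vsig4; 0.19%). No probe was matched to Cd68. By replicate, the summed macrophage level was 6.14, 6.18, 6.33 and 6.17 in MAT females and 5.94, 6.33, 6.45 and 6.79 in AGED females. The lowest level of the AGED females was that of replicate 1, while their lowest Hmox1 was that of replicate 3. MAT female replicate 1 had the lowest macrophage level and the highest Hmox1 of its group. The part of macrophages in the Hmox1 values was not tested.

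Gclc, the catalytic subunit of the first enzyme of glutathione synthesis, read 4.45, 4.84, 4.44 and 4.14 in MAT males and 3.96, 4.25, 5.28 and 4.43 in AGED males. The AGED values reached both below and above the MAT values, and the change was 0.01 ± 0.25 (SE; adjusted p = 0.988, limma). MAT females read 3.68 to 4.17 and AGED females 3.86 to 4.62, a change of 0.28 ± 0.25 (adjusted p = 0.770). The interval in females ran from -0.26 to 0.82.

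Leaving out AGED male replicate 1 changed which enzymes had groups without overlap, but gave no call. With 3 AGED males, Gpx1 and Gpx4 were higher and Nqo1 lower on all AGED arrays, or 3 of 10 enzymes, where 13.8% of all genes had such groups. Gpx4 then changed by 0.36 ± 0.13 (SE; adjusted p = 0.176, limma), Gpx1 by 0.28 ± 0.11 (adjusted p = 0.229) and Nqo1 by -0.42 ± 0.20 (adjusted p = 0.310). At an unadjusted p under 0.05 there were 2 of 10, Gpx1 and Gpx4, against 17.2% of all genes. At an adjusted p under 0.05 there were 0 of 10, against 2.58%. The SD of the AGED males fell from 0.51 to 0.10 for Cat, from 0.65 to 0.31 for Sod3 and from 0.69 to 0.09 for Hmox1.

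**Figure D3:**
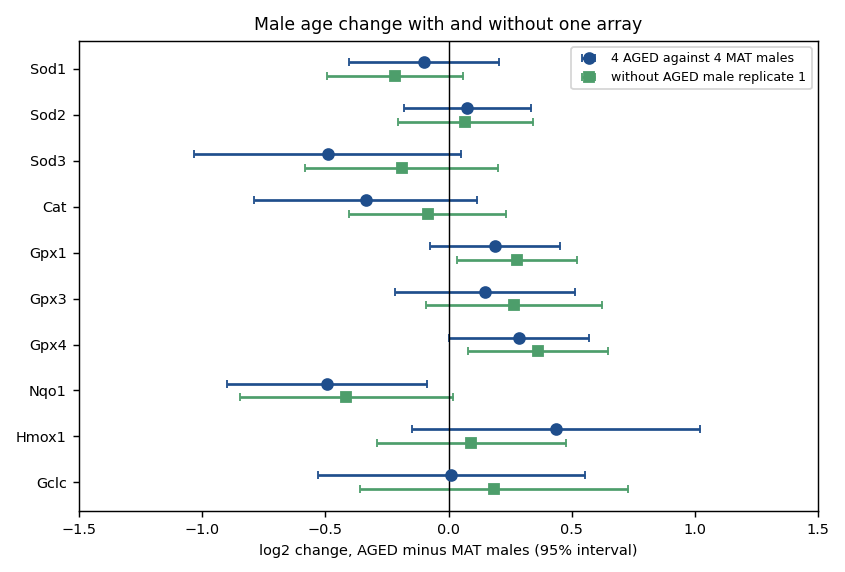
Log2 change with age in males for each enzyme, with all 4 AGED males (circles) and without AGED male replicate 1 (squares), with 95% intervals. Hmox1 moved from 0.44 to 0.09, Cat from -0.34 to -0.09 and Sod3 from -0.49 to -0.19, while Nqo1 moved from -0.49 to -0.42.

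Levels were also compared between the sexes at each age, a comparison added after the data were seen, in which sex and slide cannot be told apart. At AGED age male Gpx3 values exceeded female ones by 1.11 ± 0.17 (SE), or 2.16-fold (adjusted p = 0.00223, limma), the only call among the 10 enzymes, where 3.11% of all genes were called. Without AGED male replicate 3 the difference was 0.99 and missed the 2-fold limit, with an adjusted p under 0.05 in every fit that left out 1 array. In MAT mice it was 0.79 ± 0.17 (adjusted p = 0.0685), and 0 of 10 enzymes were called, where 0.164% of all genes were. Groups of 8 male and 8 female arrays without overlap were found for Gpx3 alone among the 10, against 1.61% of all genes.

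Male values were above female values for 9 of 10 enzymes in AGED and 8 of 10 in MAT mice, with medians of 0.28 and 0.33, beside 0.09 and 0.08 over all genes. Under quantile normalization these medians were 0.16 and 0.19, and with it, median scaling, normexp or the mean of probes the sign turned for Cat, Sod1 or Gpx1 in AGED mice and for Gpx1, Sod1 or Sod3 in MAT mice. Sod2 was higher in males without overlap at both ages, by 0.26 ± 0.12 (SE; adjusted p = 0.194, limma) in AGED and 0.43 ± 0.12 (adjusted p = 0.132) in MAT mice. With Gpx3 that made 2 of 10 enzymes, against 3.37% of all genes. Male Nqo1 values were above female ones by 0.74 ± 0.19 (adjusted p = 0.114) in MAT and by 0.21 ± 0.19 (adjusted p = 0.522) in AGED mice. Gclc, at 0.51 ± 0.25 in MAT mice (adjusted p = 0.386), and Sod1, at 0.35 ± 0.14 (adjusted p = 0.297), were also above the female values. In MAT mice these adjusted p depended on the processing. Over the other settings tried they ran from 0.0068 to 0.124 for Gpx3 and from 0.0089 to 0.578 for Sod2 (limma). For Nqo1 they ran from 0.018 to 0.747 and for Sod1 from 0.034 to 0.986. With the 2-fold limit 0 of 10 enzymes were called between MAT sexes under each of them.

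The wider antioxidant network was read from 8 lists of 119 genes, of which 113 were tested. Gpx5, Gpx6, Ggt1 and Nox3 were too dim, and no probe was matched to Duox2 and Duoxa1. At an adjusted p under 0.05, limma gave 0 of 113 genes in males (1.72% of all genes), 0 in females (0.224%) and 0 for the difference (0.149%). At an unadjusted p under 0.05, 7 genes were higher and 8 lower in AGED males, against 7.86% and 8.36% of all genes, and 8 were higher and 5 lower in AGED females, against 4.61% and 5.85%. Groups did not overlap for 4 higher and 4 lower genes in males and for 10 higher and 6 lower genes in females, against 3.91%, 3.91%, 5.04% and 5.78% of all genes. The median change was -0.0032 in males and 0.04 in females.

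**Figure D4:**
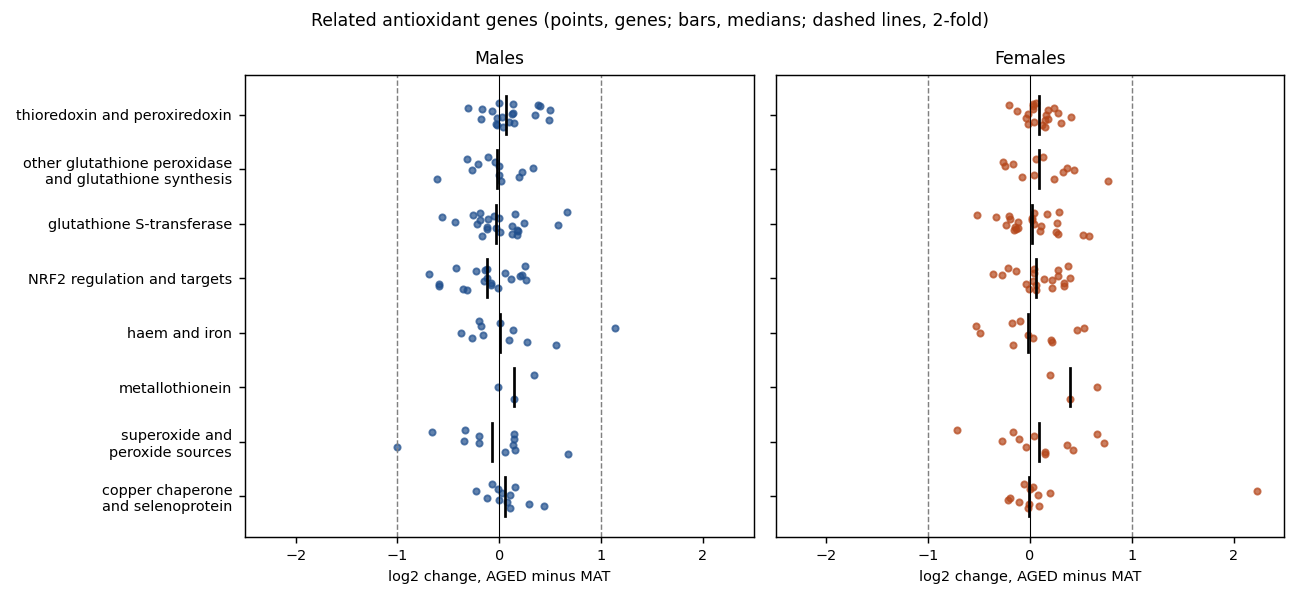
Log2 change with age of the 113 tested genes of the 8 related lists in males and in females (points), with the list medians (bars) and dashed lines at 2-fold. List medians lay between -0.12 and 0.14 in males and between -0.02 and 0.40 in females, and the point at 2.23 in females is Secisbp2.

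Thioredoxins and peroxiredoxins reduce oxidized proteins and peroxides, and 20 of 20 of this list were tested. Of these 12 were higher in AGED males and 15 in AGED females, with medians of 0.06 and 0.09. Glrx, a glutaredoxin, was higher on all AGED males, at 0.73 to 1.01 against 0.18 to 0.70 (change 0.50, adjusted p = 0.213, limma). Txnrd1, a thioredoxin reductase, was higher on all AGED females, at 3.21 to 3.48 against 2.87 to 3.13 (change 0.40, adjusted p = 0.442). Its change in males was 0.03, and the difference between the sexes had an adjusted p of 0.681.

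In the list of other glutathione peroxidases and glutathione synthesis, 12 of 15 genes were tested, with medians of -0.02 in males and 0.09 in females. Gpx2, the epithelial glutathione peroxidase, read 2.49, 3.02, 2.62 and 2.64 in MAT females and 3.47, 3.78, 3.44 and 3.16 in AGED females. All AGED females were above all MAT females, by 0.77 ± 0.17 (SE), or 1.70-fold, with an adjusted p of 0.0974 (limma). In males its change was 0.01 ± 0.17, and the difference between the sexes was -0.75 ± 0.24 (SE; adjusted p = 0.281). Gss, glutathione synthetase, was higher on all AGED arrays of both sexes, by 0.23 ± 0.10 (SE) in males and 0.32 ± 0.10 in females. The adjusted p of Gss was 0.281 in males and 0.282 in females.

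Of the glutathione S-transferases, which join glutathione to electrophiles, 23 of 23 were tested, with medians of -0.03 in males and 0.02 in females. Mgst3, a microsomal member, read 4.31, 4.45, 3.99 and 4.35 in MAT males and 4.89, 4.54, 4.95 and 5.37 in AGED males. Gstt1 read 5.16, 5.23, 5.11 and 5.07 in MAT males and 4.62, 4.79, 4.71 and 4.70 in AGED males. Neither pair of groups overlapped, and the changes were 0.66 ± 0.18 (SE; adjusted p = 0.081, limma) for Mgst3 and -0.44 ± 0.12 (adjusted p = 0.0802) for Gstt1. Gstz1 was lower on all AGED females (change -0.52), at 2.81 to 3.28 against 3.35 to 3.76 (adjusted p = 0.231).

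The list of NRF2 regulation and targets had 20 of 20 genes tested. Of these 14 were lower and 6 higher in AGED males (median -0.12, beside 0.00 over all genes). In AGED females 6 were lower and 14 higher (median 0.06, beside -0.01 over all genes). The list pools regulators (Nfe2l2, Keap1, Bach1 and the Maf genes) with targets, so these counts do not measure NRF2 activity. All of these regulators had lower estimates in AGED males, while the targets had both signs. Without AGED male replicate 1 the regulators stayed lower, and Nqo2 and Tkt turned from lower to higher (0.0057 and 0.060). Keap1 was lower on all AGED males (change -0.36, adjusted p = 0.165, limma), and its change without that array was -0.24. The gene nearest to a call in males was Aox1, an aldehyde oxidase, which read 3.04, 2.84, 2.92 and 3.17 in MAT males and 1.89, 2.20, 2.43 and 2.68 in AGED males. All AGED males were lower, with a change of -0.69 ± 0.17 (SE), or 1.61-fold, with an adjusted p of 0.0534 (limma). Its change in females was -0.37 ± 0.17 (adjusted p = 0.466), and the groups overlapped. In females Tkt, a transketolase, was higher on all AGED arrays by 0.40 (adjusted p = 0.568), and Ephx1, an epoxide hydrolase, was lower on all (change -0.28, adjusted p = 0.580).

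In the remaining 4 lists, groups did not overlap for 0 of 38 tested genes in males (7.82% of all genes) and 7 of 38 in females (10.8%). In females the transferrin receptor Tfrc was higher by 0.46 (adjusted p = 0.234, limma) and the haem-binding Hpx lower (change -0.53, adjusted p = 0.393). Xdh, whose product xanthine oxidoreductase can make superoxide, read 1.32, 1.32, 1.44 and 1.60 in MAT females and 2.26, 2.11, 1.75 and 2.20 in AGED females. The Xdh change was 0.66 ± 0.16 (SE; adjusted p = 0.15) in females and 0.15 ± 0.16 (adjusted p = 0.681) in males. Maoa (change -0.16) and Selenom (change -0.21) were lower on all AGED females, with adjusted p of 0.910 and 0.628. The 3 metallothioneins had a median of 0.14 in males and 0.40 in females, and none had groups without overlap. Secisbp2, named after its values were seen, had a female change of 2.23 ± 1.46 (SE; adjusted p = 0.643) that came with 1 MAT female reading of -8.22.

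Without AGED male replicate 1, 2 of the 113 related genes had an adjusted p under 0.05 in males, where 2.58% of all genes did, and 1 of 113 in females, where 0.758% did. They were Txnrd2, at 0.46 ± 0.10 in males (SE; adjusted p = 0.0257, limma; 0.35 ± 0.12 and adjusted p = 0.171 with that array), Gstm2, at 0.43 ± 0.10 in males (adjusted p = 0.0432; 0.18 ± 0.19 and adjusted p = 0.682 with it), and Gpx2 in females (adjusted p = 0.0466). The Gpx2 values of females do not include that array, which enters there only through the shared estimate of the spread. None of the 3 reached 2-fold.

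The genes whose 16 values lay closest to those of Nqo1, each gene centred on its own mean, were Cgn, G6pdx and Sugp1, with root mean square differences of 0.182, 0.184 and 0.195 on the log2 scale, where the median over genes was 0.459. For Cat they were Tacr2, Slc35e2 and Oacyl, with 0.0779, 0.0954 and 0.101 and a median of 0.475. Tacr2, a tachykinin receptor, changed by -0.43 in males and -0.57 in females. Because it was picked for its likeness to Cat, changes near those of Cat were built in. These are descriptions over 16 arrays that share slides, groups and the scaling.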

How the data were processed

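The authors extracted total RNA of bladder body, labelled it with Cy3, hybridized it to Agilent SurePrint G3 mouse arrays and read the images with Feature Extraction (10.7.3.1 in the file headers, 9.1 in the labels). The deposited scanner files hold an intensity per spot, the background-subtracted processed signal, with no normalization between arrays. A second deposited table, of log2 values centred on the median of each probe, served as an alternative. It lay within 0.0135 of the values used here in the median of every array.

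Controls and outlier-flagged spots were left out (399 probe values). The log2 of each spot was taken, spots of a probe were averaged and each array's 75th percentile was subtracted. No spot was saturated. Probes well above background on at least 4 of 16 arrays were kept (36972 of 55681), and the kept probe with the highest mean stood for a gene. Of all probes, 26582 were named through RefSeq accessions (GRCm38.p6, used for names and promoters).

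One limma fit (version 3.58.1, R 4.3.3) estimated the 4 group means with 12 residual degrees of freedom, followed by Benjamini-Hochberg adjustment over 26781 genes. Calls needed an adjusted p under 0.05 together with a 2-fold change or more. Exact permutation tests were two-sided. Intervals are 95%. The number of arrays limits the precision, and the labels name the arrays of a group by number, with 1 mouse each by the design text. The procedure was tested on simulated data with independent normal noise, the same spread in every group and planted changes of 2-fold or more. It therefore did not cover an outlying array, unequal spreads or changes below 2-fold.

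The members, the gene lists and the tests were chosen with earlier results of these data known. Named genes are the 10 enzymes, from each related list any gene at an adjusted p under 0.05 and, per sex, the largest rise and fall among genes without overlap, and the 3 genes nearest to the enzyme with the largest change in each sex. Marker lists covered urothelium, smooth muscle, fibroblast, macrophage, neutrophil, blood, adipocyte, T and B cell, male accessory gland and skeletal muscle. Their median changes in males and females were -0.01 and 0.17 for urothelium, 0.04 and 0.04 for smooth muscle, -0.29 and -0.08 for fibroblast, 0.38 and 0.77 for macrophage, 1.91 and 1.29 for neutrophil, -0.15 and -0.31 for blood, -0.59 and -1.12 for adipocyte, 0.52 and -0.63 for T and B cell, -0.28 and -0.06 for male accessory gland (1 gene) and -1.02 and -0.11 for skeletal muscle. Alternatives were scaling by quantiles or the median, the deposited log2 table, normexp on the median spot signal (offset 50), filters on dim probes, the mean of a gene's probes, each sex alone, a variance trend, array weights, a block for the replicate number, the methods' t-test, no fold limit and leaving out each array. The comparison of the sexes was added after the data were seen. The genes of the study's table of most changed genes were looked up, for their direction only, after the data were seen.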

Additional observations from a re-analysis of the deposited data

Results flagged for a closer look

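In 4 of 48 groups of 4 arrays (8.33%; 4 groups of each of the 12 probes) 1 array lay apart from the other 3 by a gap that, as a share of the group's range, was above Dixon's critical value for 4 values. Chance gives this in about 1 group in 20. On AGED male replicate 1 Hmox1 was high with both probes, with gaps of 0.885 (tested probe) and 0.921 (other probe) of the range. Gpx4 was high on MAT male replicate 2, with a gap of 0.876 of the range, and low on MAT female replicate 4, with a gap of 0.997, where the other 3 arrays all read 5.22.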

How the results depend on the processing

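In both sexes and for their difference 0 of 10 enzymes were called under every setting run, each left-out array included, and Gpx3 was the 1 enzyme called between AGED males and AGED females in all but 1 of them, with 0 called without AGED male replicate 3. Counts over all genes moved more. Against 228 genes called in males, they were 837 and 753 with normexp and quantile or 75th percentile scaling, 552 with no filter, 11 with each sex alone, 496 by the methods' t-test, 0 after its adjustment, and 461 with no fold limit. Against 51 in females, they were 18 with no filter, 99 with each sex alone, 194 with array weights, 394 by the methods' t-test and 1 after its adjustment. Against 40 for the difference, they were 582 and 466 with normexp, 7 with no filter, 78 with all arrays well above background, 25 with the mean of probes, 253 with array weights and 67 with a variance trend. Leaving out 1 array gave 123 (without MAT male replicate 3) to 377 (without AGED male replicate 2) in males, 1 (without AGED female replicate 2) to 120 (without AGED male replicate 1) in females and 6 to 269 (the same 2 arrays) for the difference, and 612 to 1254 between AGED and 17 to 116 between MAT sexes.

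With the replicate number as a block, counts were 3 in females and 12 for the difference, and no enzyme was called. Same-numbered MAT and AGED arrays did not deviate together (correlations from -0.14 to 0.07 in males and -0.15 to 0.06 in females, 0 of 8 above 0.1). Arrays of unlike number gave -0.16 to 0.20 in males and -0.16 to 0.14 in females, with 3 of 12 above 0.1 in each sex. No pairing by number was seen, but such correlations cannot exclude one.

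The median of the 10 enzymes for the difference was -0.14 and -0.16 with normexp and -0.12 with array weights, and -0.12 to 0.074 with 1 array left out. Between AGED sexes it was 0.16 with quantile scaling and 0.087 and 0.16 with normexp (0.20 to 0.32 with 1 array left out), and between MAT sexes 0.19 with quantile scaling and 0.21 with normexp and quantile scaling (0.28 to 0.37). In males it was -0.045 to 0.13 and in females 0.085 to 0.12 with 1 array left out.

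Signs turned for small changes. Gpx1 in females was -0.085 (quantile), -0.016 (median scaling), -0.075 (normexp and quantile) and -0.018 (array weights). Gpx1 in males was -0.17 and -0.13 with normexp, and its difference -0.099 and -0.14. Gclc in males was -0.051 with median scaling. The Gpx4 difference was -0.022 and -0.051 with normexp. The Hmox1 difference was -0.043 (median scaling), -0.0013 (the authors' table), -0.26 and -0.28 (normexp), -0.18 (mean of probes) and -0.14 (array weights). Between AGED sexes, Cat was -0.00080 (median scaling) and -0.019 (mean of probes), Sod1 -0.35 and -0.073 and Gpx1 -0.17 and -0.018 (normexp). Between MAT sexes, Gpx1 was -0.086 (quantile) and -0.066, Sod1 -0.041 (both normexp and quantile) and Sod3 0.0081 (normexp and 75th percentile). With 1 array left out, signs turned for Gclc in males (-0.25 to 0.18), Sod1 (-0.17 to 0.019), Gpx1 (-0.053 to 0.050) and Nqo1 (-0.10 to 0.18) in females, the Sod1 (-0.15 to 0.074) and Hmox1 (-0.34 to 0.14) differences, Cat (-0.064 to 0.30), Hmox1 (-0.036 to 0.44) and Gclc (-0.018 to 0.42) between AGED sexes, and Sod3 between MAT sexes (-0.070 to 0.029). The cause of these shifts was not tested.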
